A study of Homo sapiens with 6 samples.

Results

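The nuclear genes for the subunits of the oxidative phosphorylation system were compared between HCCLM3 cells that overexpress *PON1* and their control. The genes were taken from the deposited count table by their symbols, which had to begin with NDUFA, NDUFB, NDUFC, NDUFS or NDUFV and a digit, with UQCR, with COX4 to COX8 and A, B, C or a digit, or with ATP5F, ATP5M or ATP5P, or to be SDHA, SDHB, SDHC or SDHD. This rule gave 86 of the 20381 genes in the table. Of these, 36 belong to complex I, 4 to complex II, 9 to complex III, 17 to complex IV and 18 to complex V, and 2 are readthrough genes that were counted with no complex. *NDUFA4* and *NDUFA4L2* were counted with complex IV, where the protein of the former is found, despite their symbols. No measured value entered the rule.

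HCCLM3 is a human hepatocellular carcinoma line with a high capacity for metastasis. PON1-OE cells stably expressed *PON1* from a lentivirus, and NC cells were the negative control, which the design text of the series describes as an empty lentiviral vector. The study made 3 libraries per group from poly(A) RNA, and no source used here says whether these came from separate infections or cultures, so *p* values measure only the spread between these libraries. Culture is given with 10% serum and puromycin selection in the paper and with 15% serum and lysis 24 h after transfection in the design text.

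Oxidative phosphorylation takes place in the inner mitochondrial membrane. Complexes I and II pass electrons from NADH and succinate to ubiquinone, complex III passes them on to cytochrome c, and complex IV passes them to oxygen. Complexes I, III and IV pump protons, and complex V, the ATP synthase, uses the resulting gradient to make ATP. Most subunits are encoded in the nucleus, whereas a small hydrophobic core is encoded in mitochondrial DNA (mtDNA), and many tumors keep the system active beside glycolysis.

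The libraries held 15706672 to 17948383 estimated counts, and the 86 genes took 0.699% to 0.739% of them. *PON1*, the targeted gene, had 0, 2 and 3 counts across the NC replicates and 155, 181 and 167 across the PON1-OE replicates, and the libraries followed their labels. The labels also call the cells hepatocytes. The hepatic regulator *HNF4A* was at 72.5 to 82.5 CPM (counts scaled to a common library size), whereas *ALB*, the gene for albumin, was at no more than 0.762 CPM in any library. Of 14 hepatic and epithelial markers 10 were tested, 4 above and 6 below 0 with a median log2FC of −0.097 and 0 at an adjusted *p* under 0.05. The plasma protein genes *APOH* (23.0 to 29.3 CPM) and *APOB* (3.75 to 6.24 CPM) had log2FC values of −0.17 and −0.36 with unadjusted *p* values of 0.0461 and 0.0456 in edgeR (adjusted *p* = 0.443 each), and *TF* (at most 23.2 CPM) had −0.16 with no overlap of the groups. Above 0, *AFP* (0.221 to 1.10 CPM) had the highest log2FC of the 10 at 0.88 (unadjusted *p* = 0.0750, adjusted *p* = 0.511 in edgeR). *KRT18* had 0.063 (unadjusted *p* = 0.0993, adjusted *p* = 0.560). An unadjusted *p* under 0.05 was reached by 11.1% of all genes tested. Of 14 markers of blood, vessel and stromal cells, 9 were at or under 3 counts in every library. The 5 of these at 0 were *PTPRC*, *CD3E*, *LYZ*, *DES* and *HBB*. The summed level of the 14 was 223 to 245 CPM for NC and 243 to 269 CPM for PON1-OE, most of it *CD68*. The 3 tested had log2FC values above 0, *CD68* at 0.13 (unadjusted *p* = 0.00943, adjusted *p* = 0.252 in edgeR), *PECAM1* at 0.20 with no overlap of the groups (unadjusted *p* = 0.0512, adjusted *p* = 0.452) and *DCN* at 0.25 (adjusted *p* = 0.694). The part of such cells in the results was not tested.

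None of the subunits differed between the groups after correction. Of the 80 members that passed the filter on low counts, edgeR's quasi-likelihood test gave 0 at *p* under 0.05 after Benjamini-Hochberg adjustment, and the lowest adjusted *p* was 0.286. Over all 11958 genes tested, 0.677% had an adjusted *p* under 0.05. DESeq2 and limma-voom also gave 0 members. At an unadjusted *p* under 0.05 each of the 3 tools gave 1 member, *NDUFA13*, which is 1.25% of the 80, whereas 11.1% of all genes tested were under this threshold in edgeR, 5.91% higher and 5.17% lower in PON1-OE. The share over all genes was 5.52% in DESeq2 and 10.95% in limma-voom. The median log2FC, the log2 of PON1-OE over NC, was 0.0091 over the 80 members and −0.0025 over all genes tested, with 49 members above and 31 below 0.

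The estimates were precise enough to bound the size of a difference. The median standard error of a member's log2FC was 0.057, against 0.078 over all genes tested. The 95% interval lay within ±0.2 for 61 of the 80 members, within ±0.3 for 71 and within ±0.5 for 78. The exceptions were *COX6B2* and *NDUFC2-KCTD14*, both at about 1 CPM, where few reads set wide intervals. The interval held 0 for 79 of the 80, with *NDUFA13* as the exception.

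**Figure D1:**
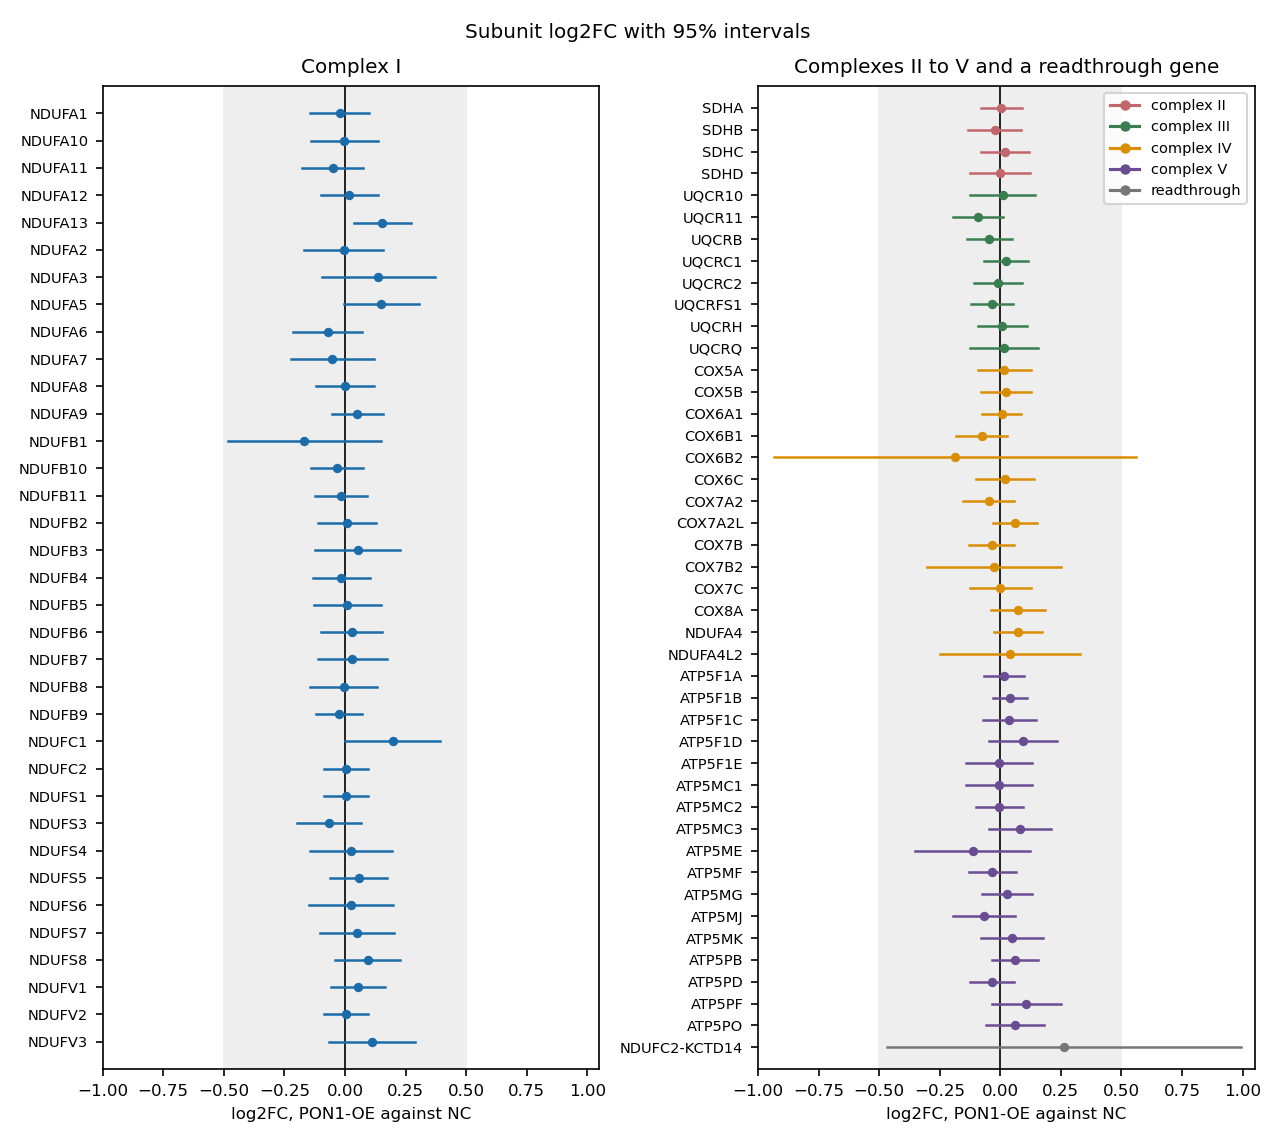
The log2FC of PON1-OE against NC (points) with its 95% interval (lines) for 79 of the 80 members tested, complex I on the left and complexes II to V with a readthrough gene on the right. The shaded band spans ±0.5, and the intervals drawn lie inside it except those of *COX6B2* and *NDUFC2-KCTD14*. The interval of *NDUFA13* alone leaves out 0.

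Tissue forms of several subunits exist beside a widely used form, and the promoters of 2 such pairs are shown here, those with a window for both genes and the tissue form at 0 counts in every library. *COX6A1* and *COX8A* are the widely used forms of subunits 6A and 8, whereas *COX6A2* is the form of heart and skeletal muscle and *COX8C* a form known from testis. The windows hold the 250 bases before the RefSeq start of each gene on GRCh38.p14, in the direction of the gene. In GENCODE v29 the starts of *COX6A1* (120438090), *COX6A2* (31428428) and *COX8A* (63974607) lie inside these windows. By that annotation the ETS core marked in *COX6A1* lies within the gene, and the one in *COX8A* spans its start. Capitals mark matches on either strand to GCGCATGC, the core of the site of NRF1, a factor known for driving respiratory chain genes, or to CCGGAAG, the core of sites of ETS factors such as GABP.

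COX6A1 (chr12:120437863-120438112, plus strand): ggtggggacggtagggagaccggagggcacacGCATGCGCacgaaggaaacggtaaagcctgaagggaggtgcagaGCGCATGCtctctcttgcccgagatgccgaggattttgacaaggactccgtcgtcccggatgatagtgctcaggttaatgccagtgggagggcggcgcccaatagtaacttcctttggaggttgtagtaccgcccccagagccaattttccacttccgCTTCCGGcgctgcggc
COX6A2 (chr16:31428361-31428610, minus strand): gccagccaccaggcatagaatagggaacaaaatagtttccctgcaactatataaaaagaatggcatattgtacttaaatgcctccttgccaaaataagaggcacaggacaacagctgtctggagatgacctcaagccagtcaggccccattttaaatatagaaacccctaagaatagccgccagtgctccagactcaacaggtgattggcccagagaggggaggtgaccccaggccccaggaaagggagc
COX8A (chr11:63974370-63974619, plus strand): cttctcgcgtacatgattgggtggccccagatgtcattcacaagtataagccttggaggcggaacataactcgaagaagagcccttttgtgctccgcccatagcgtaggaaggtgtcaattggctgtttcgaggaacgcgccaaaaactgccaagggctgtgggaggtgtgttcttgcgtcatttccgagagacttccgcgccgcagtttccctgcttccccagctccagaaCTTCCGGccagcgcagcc
COX8C (chr14:93346932-93347181, plus strand): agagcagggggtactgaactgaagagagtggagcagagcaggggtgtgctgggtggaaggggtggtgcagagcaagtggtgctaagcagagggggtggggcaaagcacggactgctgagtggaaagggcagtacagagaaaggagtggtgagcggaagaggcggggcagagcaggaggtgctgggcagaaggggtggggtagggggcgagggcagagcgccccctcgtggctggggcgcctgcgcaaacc

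The *COX6A1* window held 2 NRF1 cores, 1 ETS core and 19 CpG dinucleotides, and the *COX6A2* window held neither core and 1 CpG. The *COX8A* window held 1 ETS core and 16 CpG, and the *COX8C* window held neither core and 8 CpG. Other pairs did not all show this contrast. The window of *COX7A2*, a widely used form, held no core and 0 CpG, those of *COX7B* and *ATP5MG* held no core, and *COX6B2* had more CpG than *COX6B1* (26 against 14). A window was at hand for 68 of the 86 members. The NRF1 core was present in 17.6% of these, in 4.99% of the 9736 windows of genes tested and in 2.81% of all 27305 windows. For the ETS core the shares were 25.0%, 16.9% and 8.82%, and for AAGATGGC, the core of the site of YY1, 1.47%, 1.89% and 1.37%. At least 1 of the 3 motifs was present in 35.3% of member windows, 22.1% of windows of genes tested and 12.2% of all windows. The motif letters do not overlap in these 4 windows, and a match describes the letters only, not a bound factor.

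Levels between genes are given as CPM per kb of the median length of the gene's protein-coding transcripts in GENCODE v29, since the transcripts in use are not known. *COX6A1* was at 660 CPM per kb in NC and 662 CPM per kb in PON1-OE, the highest level of all members in NC, while *COX6A2* had a count of 0 in every library. *COX8A* was at 226 and 237 CPM per kb, with *COX8C* at 0 counts throughout. *COX7A2* was at 180.5 and 174.5 CPM per kb, with *COX7A1*, the heart and muscle form, again at 0.

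Among the 8 pairs of a widely used and another form, the other form was at 0 in 4 and passed the filter in 3. The fourth at 0 was *ATP5MGL*, a copy of *ATP5MG*, and *UQCRHL*, a near-identical copy of *UQCRH* with which reads can be exchanged, had 2 counts in NC replicate 2 and 0 elsewhere. A count of 0 allows a level of up to 0.166 to 0.192 CPM in these libraries, from a floor of 3 counts that covers counting error only. The readthrough gene *ATP5MF-PTCD1*, with 2 counts in PON1-OE replicate 1 and 0 elsewhere, was the remaining member removed by the filter.

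The 3 other forms that passed were all below their partners. *COX7B2*, known from testis, was at 14.4 CPM per kb in NC, against 210 for *COX7B*. *NDUFA4L2*, a hypoxia-induced relative of *NDUFA4*, was at 6.26 CPM per kb, against 52.0. *COX6B2*, also known from testis, was at 0.57 CPM per kb, against 236 for *COX6B1*. PON1-OE gave the same order in each pair, with 14.1, 6.45 and 0.50 CPM per kb for the 3 genes.

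**Figure D2:**
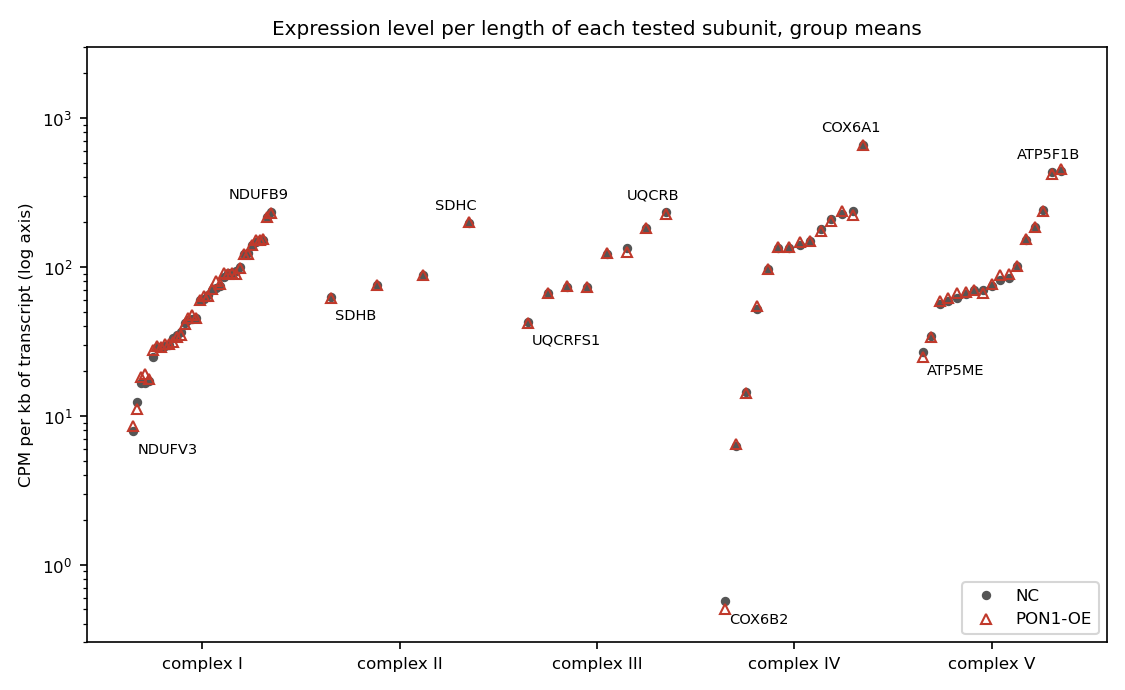
Mean level of each tested member in NC (circles) and PON1-OE (triangles), in CPM per kb of transcript on a log axis, ordered within each complex by the NC level, with the lowest and highest member named. The symbols of the groups lie on or next to each other along the whole range, from *COX6B2* at 0.57 to *COX6A1* at 660 CPM per kb in NC.

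Complex I takes electrons from NADH and is the largest complex, with core subunits that carry the flavin, the iron-sulfur clusters and the ubiquinone site and accessory subunits around them. All 36 members were tested. Their log2FC lay between −0.17 and 0.20 with a median of 0.0090, 23 above and 13 below 0. The 7 core members had a median of 0.050, 6 above and 1 below 0, and the 29 accessory members a median of 0.0076, 17 above and 12 below.

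*NDUFA13*, also known as *GRIM-19*, encodes an accessory subunit that has been tied to cell death induced by interferon and retinoic acid. It lies on the plus strand of chromosome 19 from 19515736 to 19529054 (GRCh38, GENCODE v29). Its level was 60.1, 59.0 and 59.2 CPM for NC replicates 1 to 3 and 66.0, 70.2 and 62.2 CPM for PON1-OE replicates 1 to 3. Every PON1-OE library lay above every NC library. The means were 59.4 ± 0.598 and 66.1 ± 3.99 CPM (SD, n = 3 each), and the spread in PON1-OE was the wider of both. The log2FC was 0.15 with a standard error of 0.057, an unadjusted *p* of 0.0134 and an adjusted *p* of 0.286 in edgeR's quasi-likelihood test, so it did not pass. Over the alternatives the log2FC was 0.11 to 0.196, *p* before adjustment 0.00492 to 0.0677 and the adjusted *p* 0.234 to 0.582, and the unadjusted *p* was above 0.05 without PON1-OE replicate 2. The gene shares 131 exonic bases with *YJEFN3* and 437 with ENSG00000258674 on the same strand, so its count rests on how the authors' tool split shared reads. With the genes of that locus summed, the log2FC was 0.154 with an unadjusted *p* of 0.0132 and an adjusted *p* of 0.285 in edgeR, close to the values above.

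In 3 members all PON1-OE libraries were above all NC libraries and in 2 they were all below. These are 3.75% and 2.5% of the 80 members, against 8.32% and 7.74% of all genes tested. The shares of the members were thus not above those of the genes at large. *NDUFA13* and *NDUFC1* were among the higher ones.

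*NDUFC1*, a small accessory subunit of the membrane arm, was at 13.2, 12.7 and 13.1 CPM for NC and 15.0, 15.0 and 14.6 CPM for PON1-OE. The groups were apart by more than the spread of either, and the log2FC of 0.20 (standard error 0.095) was the highest in complex I. In edgeR *p* was 0.0511 before and 0.452 after adjustment. It shares 360 exonic bases with *MGARP*, and with the genes of that locus summed its unadjusted *p* was under 0.05.

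*NDUFA5*, an accessory subunit of the arm that reduces ubiquinone, was at 26.6, 29.6 and 28.1 CPM for NC and 32.9, 29.5 and 31.1 CPM for PON1-OE. NC replicate 2 and PON1-OE replicate 2 met at the same level, and the log2FC of 0.15 had an adjusted *p* of 0.463 in edgeR. *NDUFB1*, an accessory subunit of the membrane arm, was at 5.87, 5.58 and 5.45 CPM for NC and 4.57, 5.32 and 5.17 CPM for PON1-OE. All PON1-OE libraries were lower, but the level was low, and the log2FC of −0.17, the lowest in the complex, had a standard error of 0.15 (adjusted *p* = 0.750 in edgeR).

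The core members named here had log2FC values from −0.067 for *NDUFS3* to 0.093 for *NDUFS8*, an iron-sulfur subunit (adjusted *p* = 0.649 in edgeR). *NDUFV1*, which binds the flavin that accepts electrons from NADH, was at 94.7, 88.6 and 94.0 CPM for NC and 91.0, 103 and 93.3 CPM for PON1-OE (log2FC 0.053, 95% interval −0.058 to 0.16). *NDUFS1*, the large iron-sulfur subunit, was at 145, 143 and 143 CPM for NC and 148, 137 and 148 CPM for PON1-OE (log2FC 0.0032, 95% interval −0.087 to 0.093). In both genes the groups overlapped. *NDUFS3*, a core subunit at the ubiquinone end, was at 55.9, 52.9 and 55.9 CPM for NC and 52.9, 56.3 and 47.9 CPM for PON1-OE (standard error of the log2FC 0.064), and PON1-OE held both the highest and the lowest library. It shares 721 exonic bases with *PTPMT1*, and its log2FC was −0.019 with that locus summed and −0.12 to −0.0075 with single libraries left out, nearest to 0 without PON1-OE replicate 3 and farthest without PON1-OE replicate 2. *NDUFB9*, an accessory subunit with the highest level per length in complex I (235 CPM per kb in NC), had a log2FC of −0.026 (95% interval −0.12 to 0.070).

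Complex II is the succinate dehydrogenase of the citric acid cycle and the only complex with no subunit from mtDNA. The 4 members had log2FC values between −0.023 and 0.018 and a median of 0.00045, and all 4 intervals lay within ±0.2. *SDHA*, which oxidizes succinate, was at 161, 157.5 and 162 CPM for NC and 163, 163 and 156 CPM for PON1-OE. *SDHB*, which carries the iron-sulfur clusters, was at 72.2, 73.5 and 72.1 CPM for NC and 71.7, 68.3 and 74.4 CPM for PON1-OE. The groups overlapped in both genes. *SDHC*, a membrane anchor, had the highest log2FC of the complex at 0.018 (standard error 0.048) and *SDHB* the lowest at −0.023 (standard error 0.052).

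Complex III passes electrons from ubiquinol to cytochrome c. Of its 9 members 8 were tested, 4 above and 4 below 0, with log2FC values between −0.091 and 0.023 and a median of −0.00086. All 8 intervals lay within ±0.2. *UQCRFS1*, the Rieske iron-sulfur protein, was at 147, 145 and 153 CPM for NC and 146, 146 and 142 CPM for PON1-OE (log2FC −0.034, standard error 0.042). *UQCRC1*, a core protein on the matrix side, was at 148, 142.5 and 146 CPM for NC and 143, 155 and 145 CPM for PON1-OE (log2FC 0.023, standard error 0.044). The libraries of both genes overlapped between the groups.

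*UQCR11*, a small subunit, had the lowest unadjusted *p* among the members with a negative log2FC. It was at 99.6, 96.3 and 106 CPM for NC and 95.4, 96.7 and 90.8 CPM for PON1-OE. PON1-OE replicate 2 lay just above NC replicate 2. The log2FC was −0.091 (standard error 0.050), with an unadjusted *p* of 0.0800 and an adjusted *p* of 0.522 in edgeR, and the gene shares 235 exonic bases with ENSG00000267059. With that locus summed, the log2FC was −0.101 with an unadjusted *p* of 0.0470 in edgeR (adjusted *p* = 0.444). Over all alternatives *p* before adjustment was 0.0256 to 0.342. *UQCRB*, a small subunit near the ubiquinone site and the highest per length in the complex (233 CPM per kb in NC), had a log2FC of −0.045 (95% interval −0.14 to 0.048).

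Complex IV reduces oxygen to water on a core encoded in mtDNA, around which the nuclear subunits are placed. Of the 17 members 14 were tested, 9 above and 5 below 0, with a median log2FC of 0.010. *COX6A1* was at 381.5, 361 and 390.3 CPM for NC and 377, 393 and 366 CPM for PON1-OE, a log2FC of 0.0051 with a standard error of 0.039, and shares 175 exonic bases with ENSG00000111780. *COX5A*, a nuclear subunit on the matrix side, was at 78.7, 74.2 and 79.8 CPM for NC and 77.8, 81.9 and 75.5 CPM for PON1-OE (log2FC 0.016, standard error 0.053). In both the libraries of the groups were interleaved.

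None of the extremes of complex IV passed the test. *NDUFA4* had the highest log2FC of the complex at 0.073, from 112, 105 and 115 CPM for NC and 117, 119 and 114 CPM for PON1-OE (adjusted *p* = 0.616 in edgeR). The difference of its means, 111 ± 5.41 and 116 ± 2.72 CPM (SD, n = 3 each), was larger than the SD of either group, and NC replicate 3 was above PON1-OE replicate 3. *COX6B1*, which contacts cytochrome c from the intermembrane side, was at 140.5, 127.5 and 134 CPM for NC and 128, 134 and 118.5 CPM for PON1-OE (log2FC −0.076, adjusted *p* = 0.625). *COX6B2* was at 0.969, 0.995 and 0.880 CPM for NC and 0.791, 0.813 and 0.894 CPM for PON1-OE. The means were 0.948 ± 0.061 and 0.833 ± 0.054 CPM (SD, n = 3 each), but PON1-OE replicate 3 was above NC replicate 3. Its log2FC of −0.19, the lowest of all members, had a standard error of 0.36 and a 95% interval from −0.93 to 0.56, so a difference of moderate size was not detectable at this depth.

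Complex V makes ATP in its F1 head, which is driven by a rotating ring of c subunits in the membrane and held by a peripheral stalk. Of the 18 members 17 were tested, 10 above and 7 below 0, with log2FC values between −0.11 and 0.11 and a median of 0.027. By role the medians were 0.038 for the 5 F1 subunits, 0.062 for the 4 subunits of the peripheral stalk, −0.0040 for the 3 genes of subunit c and −0.032 for the 5 other membrane subunits tested. *ATP5F1B*, the catalytic beta subunit, was at 817, 783 and 824 CPM for NC and 810.4, 854 and 827 CPM for PON1-OE. Its means of 808 ± 22.1 and 830.5 ± 22.2 CPM (SD, n = 3 each) were about as far apart as the spread of either group, and its log2FC of 0.040 had the smallest standard error of all members, 0.034 (95% interval −0.031 to 0.11). *ATP5F1A*, the alpha subunit, was at 217, 203 and 216 CPM for NC and 209, 217 and 216.5 CPM for PON1-OE (log2FC 0.016, standard error 0.040).

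The outer values of complex V came from smaller subunits. *ATP5PF*, coupling factor 6 of the peripheral stalk, was at 37.9, 36.4 and 39.6 CPM for NC and 38.7, 44.0 and 40.0 CPM for PON1-OE. NC replicate 3 lay above PON1-OE replicate 1, and the log2FC of 0.11 had an adjusted *p* of 0.609 in edgeR. *ATP5PF* shares 413 exonic bases with *GABPA* on the opposite strand. *ATP5ME*, subunit e of the membrane part, was at 9.69, 10.1 and 9.56 CPM for NC and 9.26, 9.19 and 8.68 CPM for PON1-OE. No PON1-OE library reached the NC range, with a log2FC of −0.11 (standard error 0.11, adjusted *p* = 0.784 in edgeR), and the gene shares 579 exonic bases with *MYL5* on the opposite strand. *ATP5MJ*, a small membrane subunit, was at 50.6, 50.6 and 56.1 CPM for NC and 49.6, 51.9 and 48.7 CPM for PON1-OE (log2FC −0.066, adjusted *p* = 0.761).

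The readthrough gene *NDUFC2-KCTD14* had the highest log2FC of all members at 0.26, with levels of 0.969, 1.11 and 0.880 CPM for NC and 1.40, 0.750 and 1.40 CPM for PON1-OE. PON1-OE replicate 2 was the lowest of the 6 libraries, and the 95% interval ran from −0.47 to 1.00. The log2FC was 0.13 to 0.51 with single libraries left out, lowest without PON1-OE replicate 1 and highest without PON1-OE replicate 2, and 0.0057 with the genes of its locus summed. It shares 431 exonic bases with *NDUFC2*, whose log2FC was 0.0029 (standard error 0.044).

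Summed over the members, the complexes kept their proportions. In complex I the summed level was 2238 ± 45.9 CPM for NC and 2261 ± 84.5 CPM for PON1-OE (SD, n = 3 each, here and below). It was 399.6 ± 2.83 and 399.8 ± 5.11 CPM in complex II, 880.2 ± 29.3 and 869 ± 22.4 CPM in complex III, 1453 ± 48.7 and 1463 ± 55.9 CPM in complex IV and 2174 ± 42.4 and 2212 ± 69.0 CPM in complex V. In every complex the difference of the means was smaller than the SD of either group. Over complexes I to V the sums were 7145 ± 164 and 7206 ± 234 CPM, 0.85% higher in PON1-OE. In bulk libraries fewer cells with a transcript and less of it per cell cannot be told apart.

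**Figure D3:**
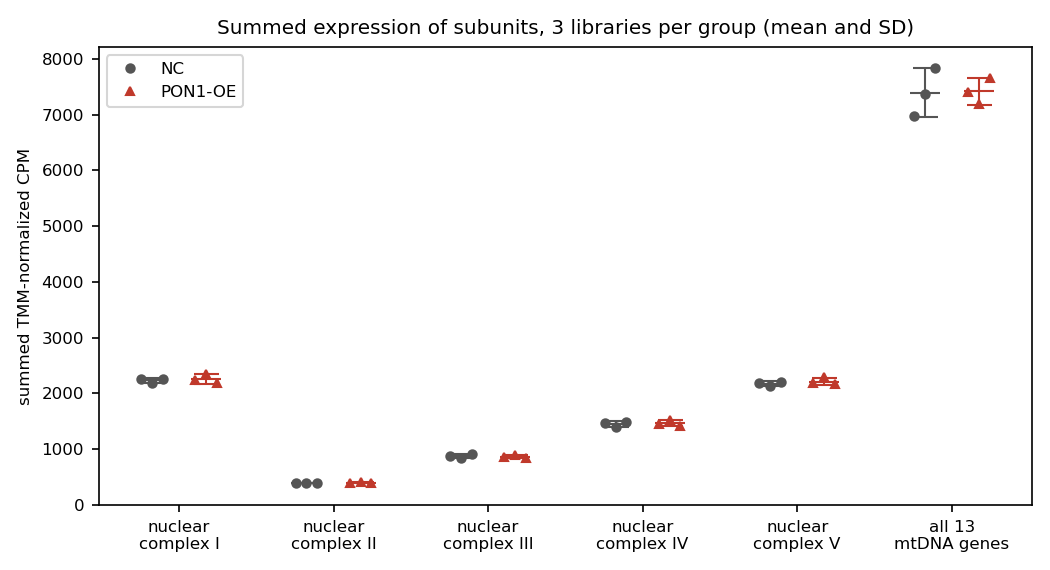
Summed TMM-normalized CPM of the nuclear members of each complex and of the 13 protein genes of mtDNA in each library (NC circles, PON1-OE triangles), with the group mean and SD. The axis starts at 0, and the libraries of the groups overlap in every column.

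The libraries of a group differed among themselves more than the groups did. The median deviation of the 80 members from their own means, on the log2 scale, was 0.0035, −0.038 and 0.023 for the NC replicates and −0.0051, 0.061 and −0.041 for the PON1-OE replicates. Over all members PON1-OE replicate 2 was the highest and PON1-OE replicate 3 the lowest. By complex the order varied. NC replicate 2 was the lowest library in complexes I (−0.046), III (−0.044) and IV (−0.059), and NC replicate 3 the highest in complex III (0.050). In PON1-OE replicate 2 the median deviation was above 0 in each complex, from 0.016 in complex III to 0.067 in complex I, and in PON1-OE replicate 3 it was below 0 in each, from −0.0016 in complex II to −0.056 in complex V. The SD within groups was 0.043, whereas the median of the 80 log2FC values was 0.0091. The 13 mtDNA genes moved otherwise, with a median deviation of −0.051 in PON1-OE replicate 2 and 0.084 in NC replicate 3.

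The members are shorter than most genes, with a median longest transcript of 1407 bases against 3683 over genes tested, while their GC content of 47.7% was close to the 48.3% of genes tested. With GC content and length taken out of log2 CPM, the median deviations were 0.0074, −0.038 and 0.016 for NC and −0.0050, 0.045 and −0.032 for PON1-OE. PON1-OE replicate 2 was again the highest, over a narrower range, and NC replicate 2 was now the lowest.

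**Figure D4:**
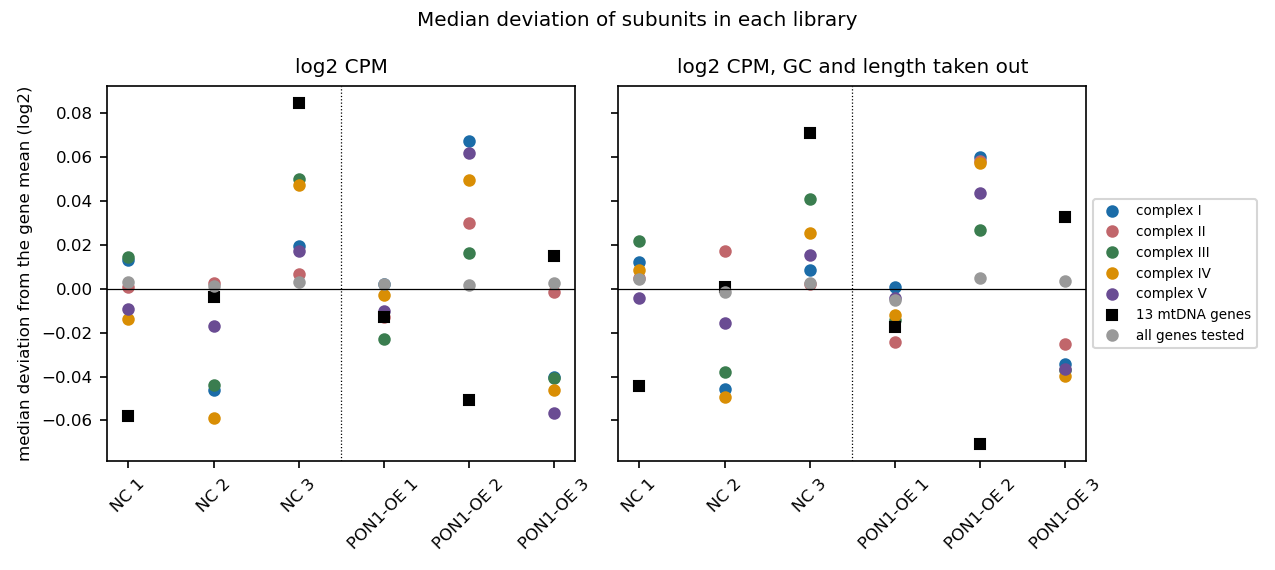
Median deviation of the members of each complex, of the 13 mtDNA genes and of all genes tested from the gene means in each library, in log2 CPM on the left and with GC content and length taken out on the right. All genes tested stay near 0. On the left the complexes are above 0 together in PON1-OE replicate 2 (0.061 over all members) and below 0 in PON1-OE replicate 3 (−0.041). NC replicate 2 (−0.038 over all members) is lower still in complexes I, III and IV.

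The 13 protein genes of mtDNA, which encode some of the subunits of complexes I, III, IV and V, gave 0 genes at an adjusted *p* under 0.05 and 0 at an unadjusted *p* under 0.05 in edgeR, 6 above and 7 below 0. Their summed level was 7393 ± 435 CPM for NC and 7418 ± 241 CPM for PON1-OE. Poly(A) selection captures these transcripts unevenly, so their levels are compared between libraries only. *MT-CO1*, the catalytic subunit of complex IV, was at 2614, 2825 and 3001 CPM for NC and 2856, 2732 and 2972 CPM for PON1-OE (log2FC 0.021, standard error 0.041). *MT-CYB*, the cytochrome b of complex III, had a log2FC of 0.0019 (standard error 0.039). *MT-ND1* and *MT-ATP6* were at −0.070 (unadjusted *p* = 0.0701, adjusted *p* = 0.501 in edgeR) and −0.074 (unadjusted *p* = 0.0812, adjusted *p* = 0.523). *MT-ATP8*, at 1.89 to 2.93 CPM, had the lowest log2FC at −0.26 (standard error 0.23), and its groups did not overlap.

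Of 7 nuclear genes for subunits, an inhibitor and cytochrome c that the rule leaves out, 6 were tested and 0 had an adjusted or unadjusted *p* under 0.05. *COX4I1*, the main form of subunit 4 of complex IV, was at 161, 151 and 162 CPM for NC and 162, 168 and 160 CPM for PON1-OE (log2FC 0.047), whereas *COX4I2*, the lung form, had 0 counts in every library. *CYC1*, the cytochrome c1 of complex III, had a log2FC of −0.010. *ATP5IF1*, the inhibitor of ATP hydrolysis by complex V, was lower in all PON1-OE libraries (39.9, 40.3 and 37.2 CPM against 42.5, 40.4 and 41.9), with a log2FC of −0.088 and an adjusted *p* of 0.671 in edgeR.

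All 59 assembly factors listed were tested, and 0 had an adjusted *p* under 0.05. At an unadjusted *p* under 0.05 in edgeR were 4 of the 59, beside 11.1% of all genes tested. Of these 4, *ATPAF2*, a chaperone of the F1 head, had a log2FC of 0.20, and *COX19*, *COA7* and *PET100*, all of complex IV, had log2FC values of −0.25, −0.16 and −0.30. Their adjusted *p* values were 0.422, 0.185, 0.372 and 0.426 in that order. The median over the 59 was −0.0049. These 4 genes are named here because of their values.

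Among 17 regulators of mitochondrial biogenesis 16 were tested, with 0 at an adjusted *p* under 0.05. At an unadjusted *p* under 0.05 in edgeR were 2 of the 16, beside 11.1% of all genes tested. The median log2FC was −0.069, 4 above and 12 below 0. The 2 were the coactivator *PPRC1*, at 102, 100.2 and 98.4 CPM for NC and 93.2, 94.2 and 92.6 CPM for PON1-OE (log2FC −0.10, adjusted *p* = 0.404 in edgeR), and *YY1* (log2FC −0.091, adjusted *p* = 0.450). Both groups of libraries were apart in each. *NRF1*, whose core motif was searched above, had a log2FC of 0.013 (standard error 0.089), and *GABPA* and *GABPB1*, which encode GABP, had −0.13 each (adjusted *p* = 0.757 and 0.660 in edgeR). On the other side, *TFB1M* had the highest log2FC of the list at 0.35 (adjusted *p* = 0.489 in edgeR). *SSBP1* had 0.083 (adjusted *p* = 0.552), with all PON1-OE libraries above all NC libraries. *PPARGC1A*, the coactivator known from fasting liver and muscle, was at 1 count at most in any library. Of 14 citric acid cycle genes, 0 had an adjusted *p* under 0.05. Beside the same 11.1% of all genes tested, 1 of the 14 had an unadjusted *p* under 0.05, *FH*, the fumarase (log2FC 0.11, adjusted *p* = 0.434 in edgeR). The median over the 14 was −0.0041.

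**Figure D5:**
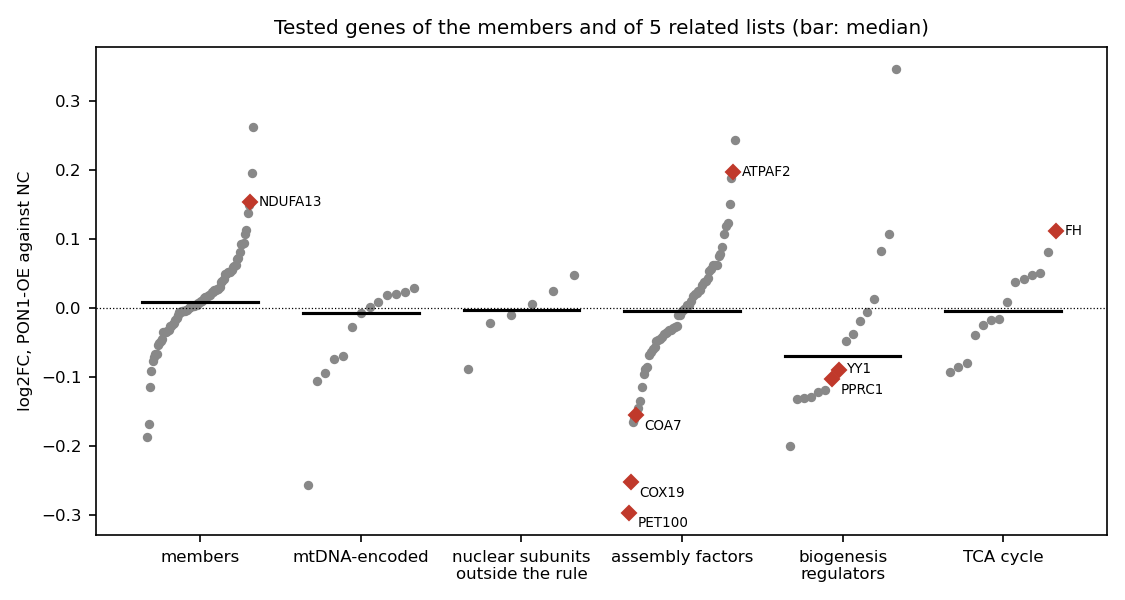
The log2FC of the tested genes among the members and in 5 related lists, ordered within each list, with the median as a bar and the genes at an unadjusted p under 0.05 as named diamonds. None of the genes shown had an adjusted p under 0.05, and the medians lie between −0.069 (biogenesis regulators) and 0.0091 (members).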

How the data were processed

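RNA-seq was carried out on poly(A) RNA of 3 PON1-OE and 3 NC libraries of HCCLM3 cells, prepared with a kit not stated to keep strand. The authors deposited one table of estimated counts for 20381 genes, not normalized. The submitters' processing notes name HISAT2, Bowtie2 2.2.8, StringTie 1.3.1 and DESeq2 with no role, and the genome build, annotation and strand setting of counting are not given in the sources used here. The 10.5% of values that were not whole were rounded.

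Counts were analyzed in R 4.3.3 with edgeR 4.0.16 (filterByExpr, TMM, glmQLFit and glmQLFTest, PON1-OE against NC, no covariates), with Benjamini-Hochberg adjustment over the 11958 genes tested. CPM values were TMM-normalized. Alternatives used DESeq2 1.42.0, limma 3.58.1 (voom, and log2 CPM less natural splines, with 5 degrees of freedom, of GC content and length), RLE size factors, other filters, a replicate block, loci of genes sharing at least 50 exonic bases on one strand, and each library left out. The edgeR fit alone was also run on simulated counts, drawn gene by gene from its own means and dispersions. Such counts cannot show how well the model describes these libraries. Standard errors were not taken from the fit but derived from edgeR's test, as the size of the log2FC over the square root of its F statistic. Intervals were built from these standard errors, are at 95% and used the moderated degrees of freedom. Pairs of libraries within groups differed by more than sampling noise (chi-square per degree of freedom 2.11 to 4.11). With 3 libraries against 3, an exact permutation test could not go below p = 0.1.

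All 86 members had an entry in GENCODE v29 on GRCh38, from which coordinates, lengths and overlaps were taken by Ensembl identifier. Of these, 18 share exonic bases with a gene on the same strand and 18 with one on the opposite strand. The latter include *SDHC* (774 bases with *CFAP126*), *NDUFB9* (677 with *MTSS1*) and *NDUFS3* (234 with *CELF1*), beside *ATP5PF* and *ATP5ME*. The members and gene lists were chosen with earlier results of these data known. Named were the members with the lowest unadjusted p (5 in each direction), the highest and lowest log2FC and the highest level per length of each complex, preset core subunits, filtered and readthrough members, and mtDNA genes. The values of 1 member that this rule names are not reported here, although it is counted among the members. *NDUFS8* was named outside this rule, with its value known, and other members were named for a pair of forms, a promoter window or an overlap. The other genes of the related lists and marker genes named were chosen after their values were seen.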

Additional observations from a re-analysis of the deposited data

How the results depend on the processing

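The count of members at an adjusted p under 0.05 was 0 under every alternative run. The count at an unadjusted p under 0.05 (1 member) was 3 with GC content and length taken out, with or without the replicate block, and 3 with overlapping genes summed into loci, beside 12.4%, 12.0% and 11.2% of all genes in that order (without the block first). It was 1 to 3 with single libraries left out, beside 8.17% to 12.9% of all genes, namely 3 without replicate 2 of either group and 2 without PON1-OE replicate 1 or 3. *NDUFA13* was among them in each case except without PON1-OE replicate 2. The others were *NDUFA5* and *UQCR11* with GC content and length taken out, and *NDUFC1* and *UQCR11* with loci summed. The median log2FC of all members was −0.0111 to 0.0342 with single libraries left out, negative without replicate 2 of either group, so its sign was not fixed. With single libraries left out the median was 0.0001 to 0.0406 in complex I, −0.0093 to 0.0159 in complex II, −0.0426 to 0.0206 in complex III (lowest without NC replicate 2), −0.0250 to 0.0550 in complex IV (lowest without NC replicate 2, highest without NC replicate 3) and 0.0073 to 0.0420 in complex V, so the sign was not fixed in complexes II, III and IV. With *NDUFA4* and *NDUFA4L2* counted with complex I, the medians of complexes I and IV were 0.0145 and 0.0029.

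In a paired fit with the replicate number as a replicate block, the count at an unadjusted p was 1 and the median 0.0097. Libraries of the same number showed no visible shared deviation (correlations of 0.0173, −0.0231 and 0.0205 across genes). Libraries of different number gave −0.0942 to 0.0714. Deviations among 3 libraries per group cannot show whether those of the same number were made in parallel, so a pairing was not settled. Of the log2FC values of the 27 named members tested, 411 of 432 kept their sign and their side of the threshold. The other 21, in 10 members, had the opposite sign at sizes of at most 0.0269. With GC content and length taken out, with and without the replicate block, *SDHA* was at −0.00018 and *COX5A* at −0.0011. Over all alternatives, the lowest and highest values were −0.0745 to 0.0058 for *NDUFB9*, −0.0035 to 0.0362 for *SDHC*, −0.0528 to 0.0090 for *SDHB*, −0.0134 to 0.0490 for *UQCRC1*, −0.0269 to 0.0297 for *COX6A1*, −0.0149 to 0.0394 for *NDUFS1*, −0.0026 to 0.0926 for *NDUFV1*, −0.0081 to 0.0238 for *SDHA*, −0.0157 to 0.0422 for *COX5A* and −0.0139 to 0.0366 for *ATP5F1A*. The cause was not tested. The fit of limma on log2 CPM without the correction was chosen after seeing the data, and it gave 1 member at an unadjusted p. Low counts limit *COX6B2*, *NDUFC2-KCTD14*, *NDUFB1* and *ATP5ME*.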
